A study of Mus musculus with 6 samples.

Results

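The genes described here encode 53BP1 and the proteins that join broken DNA ends next to it or under its control. They are *Trp53bp1*, *Rif1* and *Mad2l2*, the DNA-PK and end-processing genes *Prkdc*, *Xrcc5*, *Xrcc6* and *Dclre1c*, and the ligation genes *Xrcc4*, *Lig4* and *Nhej1*. They were taken by symbol, by a rule that uses no measured value, and all 10 were found among the 14546 genes listed in the PRO-seq table. A mean of at least 0.5 in both measured regions was needed for a test, and 9 of the 10, as part of 12451 genes, met it. PRO-seq maps engaged RNA polymerases through the biotin-tagged nucleotides that they build into nascent RNA when nuclei are run on. The libraries came from muscle stem cells (MuSCs, also called satellite cells) that had been purified from mouse muscle with magnetic beads and grown as proliferating cultures. The 3 Ctrl libraries are labelled Pax7CreERT/Suv4-20h1WT, where Suv4-20h1 is the older name of *Kmt5b*. The 3 Kmt5b sKO libraries are labelled Pax7CreERT/Suv4-20h1KO, and the study made this deletion from floxed alleles. In both groups a tamoxifen-inducible Cre is thus made from *Pax7*, the MuSC transcription factor gene, and tamoxifen was given to adult C57BL/6 mice, so the deletion reaches only cells that expressed *Pax7* at that time. The sources used here do not say whether a library stands for 1 mouse or for pooled mice, and p-values measure the spread between these libraries only.

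A break in both DNA strands can be repaired by non-homologous end joining, in which the Ku dimer (Xrcc5 and Xrcc6) holds the ends, DNA-PKcs (Prkdc) and the nuclease Artemis (Dclre1c) prepare them, and ligase IV (Lig4) with its scaffold Xrcc4 and XLF (Nhej1) seals them. 53BP1 steers breaks towards this route. It reads dimethylated histone H4 lysine 20, the mark that KMT5B makes, together with ubiquitinated H2A, and it recruits Rif1 and, through Rif1, the shieldin complex that contains Rev7 (Mad2l2) and shields the ends from resection. The question put to the data was whether the loss of the enzyme that makes the mark goes along with altered transcription of the genes whose products read it or act behind the reader.

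3 values are given for each gene. The TSS region, the first 400 nt of the listed transcript, is given in RPM, which are reads scaled to a fixed total. The gene body, which runs from there to the transcript end, is given in TPM, which also divides by length. The pausing index divides the TSS value by that of the gene body. Its parts are scaled separately in each library. An index of 1 therefore does not mark equal polymerase density in both regions. The RPM and TPM scalings both remove any change of the total amount of transcription. The listed genes held 926904 to 3246052 TSS reads per library, and their gene bodies held 7425424 to 16249142. Kmt5b sKO replicate 2 was the shallowest in both regions. In these libraries genotype rests on the labels, as the values of *Kmt5b* were not lower in the Kmt5b sKO libraries (gene body 34.8 ± 4.0 TPM in Ctrl against 38.5 ± 3.8 TPM in Kmt5b sKO, SD, n = 3 each, log2 fold change 0.14, limma adjusted p = 0.71). The study itself reported less of the mark that KMT5B makes in Kmt5b sKO MuSCs, by Western blot and immunofluorescence. All 7 markers of MuSCs and myoblasts were listed, with a summed gene body value of 1532 to 2279 TPM in Ctrl against 2023 to 2729 TPM in Kmt5b sKO. Most of that sum came from *Myod1* and *Des*, and 4 of the 7 had a negative log2 fold change, among them *Pax7* (38.6 ± 14.04 TPM in Ctrl against 27.8 ± 2.1 TPM in Kmt5b sKO, SD, n = 3 each, log2 fold change -0.41, limma adjusted p = 0.50). None of the 7 passed the test. The leukocyte genes *Ptprc*, *Adgre1* and *Csf1r*, the endothelial *Kdr* and the fibroblast *Dcn* were not in the list, while the leukocyte gene *Cd68* had 214 to 402 TPM in Ctrl and 319 to 326 TPM in Kmt5b sKO. The 3 listed endothelial genes summed to 2.50 to 4.23 TPM in Ctrl against 4.38 to 5.05 TPM in Kmt5b sKO. Marker genes of dividing cells moved with the genotype. Of 10 such genes 10 had a negative log2 fold change and 6 passed the test as lower in Kmt5b sKO, with a summed gene body value of 393 to 529 TPM in Ctrl against 222 to 279 TPM in Kmt5b sKO. The 6 fibre markers summed to 187 to 399 TPM in Ctrl and to 399 to 812 TPM in Kmt5b sKO, with 0 of the 4 tested past the test. Of the Schwann cell markers 1 passed (*Sox10*, 3.29 ± 1.0 TPM in Ctrl and 10.8 ± 4.1 TPM in Kmt5b sKO, SD, n = 3 each, limma adjusted p = 0.075), and the list summed to 8.75 to 9.90 TPM in Ctrl and 14.8 to 23.0 TPM in Kmt5b sKO. The listed markers of fibro-adipogenic cells summed to 4.98 to 17.5 TPM in Ctrl and 11.9 to 12.9 TPM in Kmt5b sKO, and those of smooth muscle, nearly all from *Acta2*, to 232 to 409 TPM and 235 to 321 TPM. The part of these shifts in the values below was not tested.

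The start of a transcript decides what the TSS value measures, and the sequences before the listed starts of *Trp53bp1* and *Nhej1* show where this differed. The genome build is GRCm38 throughout, positions are as the deposited table lists them, and promoter windows are those of RefSeq for GRCm38.p6. *Trp53bp1* (ENSMUSG00000043909) lies on the minus strand of chromosome 2, from 121194838 to 121271407, and its listed start is also the RefSeq start. Its TSS region holds 136 nt of exon, 7 of them coding, and the remaining part is intron. The 150 bases before the start, read 5′ to 3′ on the minus strand, are shown with each CG pair in capitals. They held 11 such pairs.

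Trp53bp1, chr2:121271408-121271557: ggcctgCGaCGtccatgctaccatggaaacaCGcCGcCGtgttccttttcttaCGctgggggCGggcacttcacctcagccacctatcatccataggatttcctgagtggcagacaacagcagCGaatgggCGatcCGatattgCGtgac

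*Nhej1* (ENSMUSG00000026162, minus strand of chromosome 1, 74967139 to 75046639) was listed with a transcript that the GENCODE annotation marks as incomplete at its 5′ end. The listed start lies 78587 nt inside the gene, measured from the RefSeq start at 75125226, and the 139 exonic nt of the listed TSS region are all coding. The 150 bases before both positions are given on the minus strand, again with CG pairs in capitals, first at the RefSeq start (7 pairs) and then at the listed start (0 pairs).

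Nhej1 RefSeq start, chr1:75125227-75125376: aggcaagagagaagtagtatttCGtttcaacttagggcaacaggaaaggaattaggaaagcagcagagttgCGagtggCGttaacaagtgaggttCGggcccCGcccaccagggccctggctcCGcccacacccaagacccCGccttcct

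Nhej1 listed start, chr1:75046640-75046789: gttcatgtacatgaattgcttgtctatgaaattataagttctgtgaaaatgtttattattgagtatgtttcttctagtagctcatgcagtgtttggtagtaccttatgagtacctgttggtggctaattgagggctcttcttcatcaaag

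In windows of 300 bases around the listed starts, the median tested gene held 21 CG pairs. The window of *Trp53bp1* held 20, the listed window of *Nhej1* held 0 and its RefSeq window held 10. The other members ranged from 9 in *Xrcc5* to 31 in *Rif1* and *Xrcc4*. The TSS value of *Nhej1* rested on 2, 1 and 1 reads in Ctrl against 0, 0 and 1 in Kmt5b sKO, at or under the 3 reads below which no fold is given, and it describes a site inside the gene. *Nhej1* was therefore the member without a test, and its pausing index is not interpreted.

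*Trp53bp1* encodes 53BP1 itself. Its gene body had 17.01, 15.98 and 16.8 TPM in Ctrl replicates 1, 2 and 3 against 18.6, 17.3 and 19.9 TPM in the Kmt5b sKO replicates of the same numbers. All 3 Kmt5b sKO values lay above the Ctrl values, and the Ctrl libraries differed from each other by the smallest relative spread of all members (coefficient of variation 3.25%). The log2 fold change was 0.16 (standard error 0.12, 95% interval -0.13 to 0.45, limma adjusted p = 0.62). The TSS region had 6.54, 10.3 and 7.58 RPM in Ctrl against 11.8, 11.2 and 11.96 RPM in Kmt5b sKO. These groups did not overlap either. The log2 fold change was 0.51 (standard error 0.36, limma adjusted p = 0.68), on 17 to 40 reads per library. The pausing index was 0.38, 0.65 and 0.45 in Ctrl against 0.63, 0.65 and 0.60 in Kmt5b sKO, so that here the groups overlapped at Ctrl replicate 2.

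*Rif1* (ENSMUSG00000036202, plus strand of chromosome 2, 52072837 to 52122381) encodes the effector that binds phosphorylated 53BP1. It had the largest gene body difference among the members. Its TPM values in the gene body were 15.4, 12.9 and 16.2 in Ctrl against 9.57, 11.96 and 9.83 in Kmt5b sKO. Each Kmt5b sKO library lay below each Ctrl library, although Ctrl replicate 2 and Kmt5b sKO replicate 2 were close to each other. The log2 fold change was -0.48 (standard error 0.16, 95% interval -0.85 to -0.11). *Rif1* was the only member with an unadjusted p under 0.05 in any region in limma, a level that 15.9% of all tested genes reached in the gene body, and it did not pass over all genes (limma adjusted p = 0.20). Of 18 alternative settings, 1 called it, DESeq2 on the recovered reads, with an adjusted p of 0.071. That setting called 1295 of 12451 genes in the gene body, where limma called 372. Over the other settings its adjusted p ran from 0.14 (edgeR) to 0.46 (limma without Kmt5b sKO replicate 1). The fits without Ctrl replicate 1, without any 1 Kmt5b sKO replicate or with the replicate number as a block called 0 of 12451 genes. They could not have called *Rif1*. In the TSS region of *Rif1*, 13.8, 9.19 and 13.3 RPM in Ctrl stood against 12.1, 11.2 and 11.5 RPM in Kmt5b sKO, a log2 fold change of -0.034 (limma adjusted p = 0.98). Its pausing index, 0.90, 0.71 and 0.82 in Ctrl against 1.27, 0.94 and 1.17 in Kmt5b sKO, was the only index of a tested member whose groups did not overlap (log2 ratio 0.47, standard error 0.26, limma adjusted p = 0.9997). The TSS reads behind it were 57, 16 and 70 in Ctrl against 37, 17 and 25 in Kmt5b sKO. This separation rests on the scaled values, as the groups overlapped when the index was taken from recovered reads per nt.

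*Mad2l2* (ENSMUSG00000029003, plus strand of chromosome 4, 148140182 to 148145699) encodes Rev7, a shieldin subunit that also serves DNA polymerase zeta. Its gene body, 5.1 kb long, had 31.0, 15.5 and 13.95 TPM in Ctrl against 19.2, 23.0 and 11.9 TPM in Kmt5b sKO. It was the most variable member, with Ctrl replicate 1 at about the sum of the other 2 Ctrl values and a coefficient of variation of 46.9% in Ctrl. The log2 fold change of -0.12 had a 95% interval of -0.93 to 0.70 (limma adjusted p = 0.92), so changes of either sign within that interval were not excluded. The listed start lies 308 nt from the nearest of its RefSeq starts, and the TSS region, which was exonic over all 400 nt, had 21.1, 18.4 and 6.63 RPM in Ctrl against 17.1, 15.2 and 11.96 RPM in Kmt5b sKO.

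The DNA-PK genes did not share a direction. *Prkdc* (ENSMUSG00000022672, plus strand of chromosome 16, 15637889 to 15842235) encodes the catalytic subunit of DNA-PK and has 86 exons. Its TSS region had 54.0, 42.5 and 44.0 RPM in Ctrl against 51.1, 43.6 and 47.8 RPM in Kmt5b sKO. The values of both genotypes were interleaved, and the 95% interval of the log2 fold change of 0.026 ran from -0.45 to 0.50. In the gene body, 5.05, 4.97 and 6.95 TPM in Ctrl compared with 5.36, 5.55 and 4.20 TPM in Kmt5b sKO (log2 fold change -0.15, 95% interval -0.61 to 0.31, limma adjusted p = 0.79).

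The Ku subunits act as a dimer, and neither of their genes passed the test. *Xrcc5*, which encodes Ku80 (ENSMUSG00000026187, plus strand of chromosome 1, 72307421 to 72394952), had 33.7, 13.2 and 33.3 RPM in the TSS region in Ctrl against 31.8, 35.0 and 46.5 RPM in Kmt5b sKO. The log2 fold change of 0.59 (standard error 0.32, limma adjusted p = 0.55) rested on the low value of Ctrl replicate 2, behind which lay 23 reads, and it was 0.15 without that library. Its gene body had 12.7, 8.38 and 7.21 TPM in Ctrl against 9.20, 8.99 and 12.8 TPM in Kmt5b sKO (log2 fold change 0.15, 95% interval -0.42 to 0.71), and that fold change was -0.015 without Ctrl replicate 3 and -0.0096 without Kmt5b sKO replicate 3.

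*Xrcc6*, which encodes Ku70 (ENSMUSG00000022471, plus strand of chromosome 15, 82016369 to 82040085), had 10.8, 9.27 and 11.5 TPM in the gene body in Ctrl against 7.29, 9.17 and 8.14 TPM in Kmt5b sKO. The groups did not overlap, by the narrow margin between both replicates 2, and the log2 fold change was -0.34 (standard error 0.16, 95% interval -0.71 to 0.028, limma adjusted p = 0.36). The TSS region of *Xrcc6* had 9.44, 11.5 and 16.9 RPM in Ctrl against 7.21, 9.91 and 7.82 RPM in Kmt5b sKO, a log2 fold change of -0.54 (standard error 0.36, limma adjusted p = 0.66).

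*Dclre1c* (ENSMUSG00000026648, plus strand of chromosome 2, 3424131 to 3464130) encodes Artemis, which opens hairpins and trims ends once DNA-PKcs has activated it. Its gene body had 8.65, 8.83 and 7.70 TPM in Ctrl against 6.36, 6.13 and 7.54 TPM in Kmt5b sKO, again without overlap (log2 fold change -0.31, standard error 0.15, 95% interval -0.67 to 0.046, limma adjusted p = 0.39). In its TSS region the groups were interleaved, with 21.1, 19.5 and 15.2 RPM in Ctrl against 20.7, 13.2 and 18.4 RPM in Kmt5b sKO.

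Neither *Xrcc4* nor *Lig4* passed the test, *Nhej1* was not tested under the filter on low values, and the gene body libraries of all 3 overlapped between the groups. *Xrcc4* (ENSMUSG00000021615, minus strand of chromosome 13, 89848921 to 90089608), the scaffold of ligase IV, had 3.42, 3.94 and 5.05 TPM in the gene body in Ctrl against 4.15, 4.17 and 3.86 TPM in Kmt5b sKO, and all Kmt5b sKO values fell within the Ctrl range (log2 fold change -0.0096, 95% interval -0.45 to 0.43). Its TSS region had 23.0, 40.8 and 37.5 RPM in Ctrl against 41.3, 37.6 and 39.1 RPM in Kmt5b sKO. *Lig4* (ENSMUSG00000049717, minus strand of chromosome 8, 9969049 to 9976299), the ligase, had 5.79, 6.54 and 5.21 TPM in Ctrl against 8.27, 6.46 and 6.58 TPM in Kmt5b sKO in a gene body of 6.8 kb, with only 29 to 63 reads per library (log2 fold change 0.26, standard error 0.17, limma adjusted p = 0.54). *Nhej1*, which encodes XLF, had 2.74, 2.24 and 1.66 TPM in Ctrl against 2.01, 1.79 and 2.03 TPM in Kmt5b sKO on 93 to 317 reads, and when the filter on low values was lifted its gene body gave a log2 fold change of -0.13 (limma adjusted p = 0.82).

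**Figure D1:**
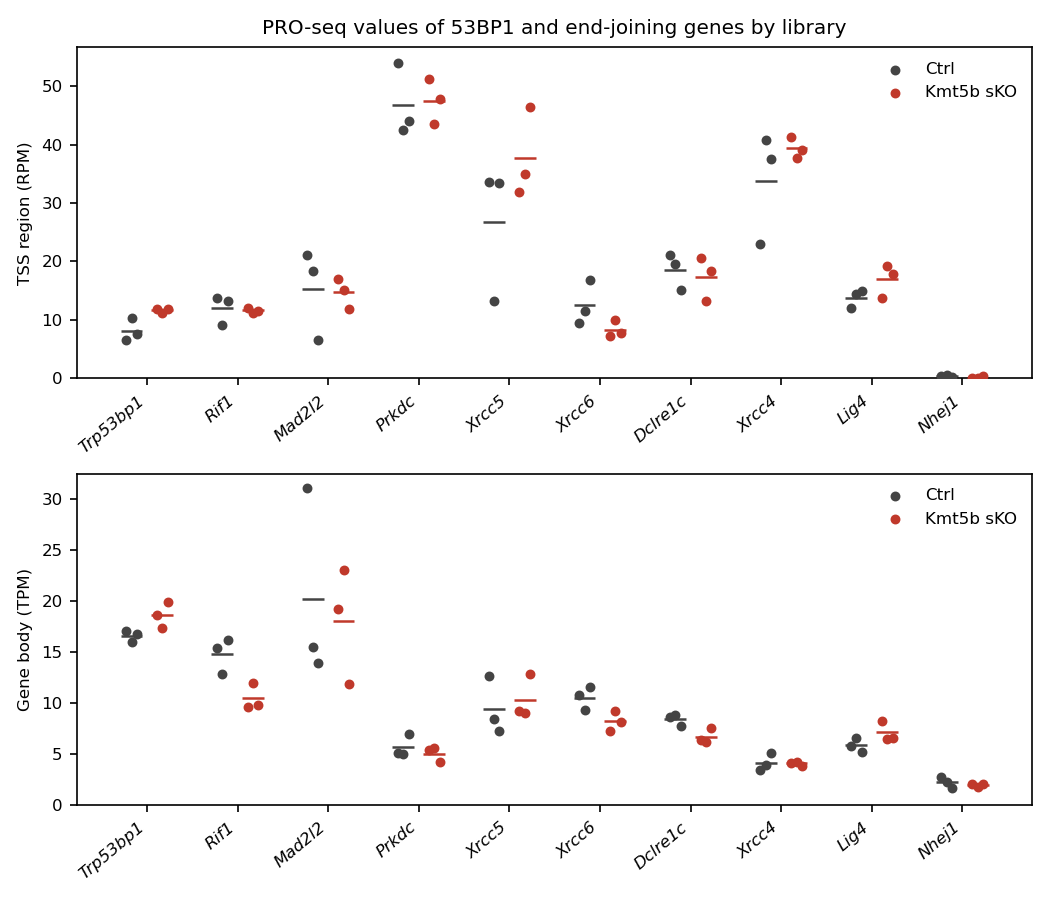
PRO-seq values of the 10 genes in each library, with the TSS region in RPM above and the gene body in TPM below; each point is 1 library, grey for Ctrl and red for Kmt5b sKO, and each bar is the mean of 3. *Prkdc* and *Xrcc4* lead in the TSS region and are among the lowest in the gene body, while *Trp53bp1* shows the reverse.

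Over the members as a group, 0 of 9 passed in the TSS region at an adjusted p under 0.1 from limma, where 1.66% of all tested genes did, and 0 of 9 passed in the gene body, where 2.99% did. Neither count stands apart from its background. For the pausing index 0 of 9 members were called, and 0.0% of the 11698 genes with an index. At an unadjusted p under 0.05 limma gave 0 members for the TSS region, 1 for the gene body and 0 for the pausing index. Over all genes it gave 1369 and 1981 of 12451 in the TSS region and gene body, and 452 of 11698 for the index. The groups did not overlap for 1 of 9 members in the TSS region (*Trp53bp1*, higher), against 15.6% of all genes. They did not overlap for 4 of 9 in the gene body (*Trp53bp1* higher, and *Rif1*, *Xrcc6* and *Dclre1c* lower), against 21.4%, and for 1 of 9 in the pausing index (*Rif1*, higher on the scaled values), against 9.02%. The members' median log2 fold change was 0.080 for TSS regions, with 0.081 over all tested genes, and -0.12 for gene bodies, with 0.023 over all tested genes. The log2 ratio of the pausing index was above 0 for 8 of 9 members, beside 6698 of 11698 genes. It was below 0 for *Xrcc6*, with *Lig4* at 0.010 and, from recovered reads, at -0.038. The median was 0.23 beside 0.053 over all genes.

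**Figure D2:**
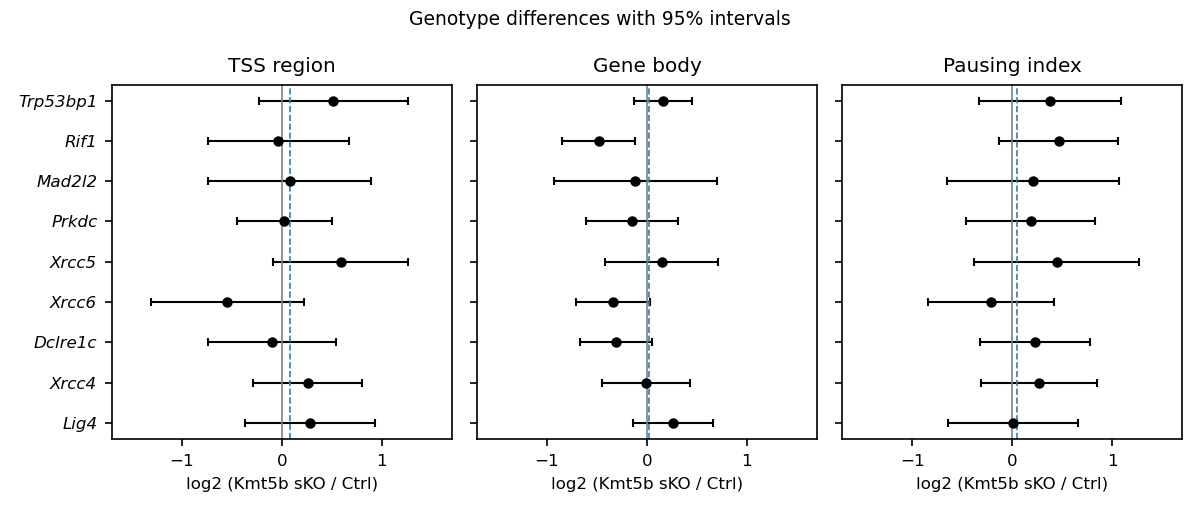
Log2 fold change of Kmt5b sKO over Ctrl for the 9 tested members in the TSS region, the gene body and the pausing index; points are limma estimates, bars are 95% intervals, and the dashed line is the median over all tested genes. The interval of *Rif1* in the gene body, from -0.85 to -0.11, is the one that leaves out 0.

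The width of these intervals sets what the comparison could show. In the gene body the standard errors of the members ran from 0.12 to 0.35 on the log2 scale and in the TSS region from 0.23 to 0.39. For *Trp53bp1* a fall of its gene body value by more than 0.13 lay outside the 95% interval, as did a rise by more than 0.45.

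The members spanned a wide range of levels, wider than any of the genotype differences. In the Ctrl gene bodies the order ran from *Mad2l2* (20.1 ± 9.4 TPM, SD, n = 3) through *Trp53bp1* (16.6 ± 0.54) and *Rif1* (14.8 ± 1.7) to *Xrcc6* (10.5 ± 1.1), *Xrcc5* (9.42 ± 2.9) and *Dclre1c* (8.39 ± 0.61), and on to *Lig4* (5.85 ± 0.67), *Prkdc* (5.66 ± 1.1), *Xrcc4* (4.14 ± 0.83) and *Nhej1* (2.21 ± 0.54). The Ctrl libraries of neighbours in this order did not overlap at 3 places, between *Rif1* and *Xrcc6*, between *Dclre1c* and *Lig4*, and between *Xrcc4* and *Nhej1*. In Ctrl *Mad2l2*, *Trp53bp1* and *Rif1* thus formed the upper group, Ku and Artemis the middle, and *Lig4*, *Prkdc* and *Xrcc4* the lower, with *Nhej1* below. Within each of the upper, middle and lower groups, neighbours in the order had overlapping libraries. The Kmt5b sKO libraries did not keep these groups apart. There *Xrcc5* (10.3 ± 2.1 TPM, SD, n = 3) stood beside *Rif1* (10.5 ± 1.3), and *Lig4* (7.10 ± 1.0) beside *Dclre1c* (6.68 ± 0.76). *Trp53bp1* exceeded 51.8% of the tested genes, and *Xrcc4* exceeded 16.1%.

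In the TSS region the order differed, mainly through *Prkdc* and *Xrcc4* at the top and *Rif1* and *Trp53bp1* near the bottom, while *Nhej1* was last in both. *Prkdc* led with 46.8 ± 6.2 RPM and stood apart from *Xrcc4* (33.8 ± 9.5 RPM). *Trp53bp1*, with 8.15 ± 2.0 RPM, was the lowest member above *Nhej1*, and exceeded 24.5% of the tested genes. From *Xrcc4* down to *Trp53bp1* each gene overlapped its neighbour.

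The pausing index in Ctrl therefore spanned a wide range. It was 8.52 ± 2.2 for *Prkdc* and 8.17 ± 1.9 for *Xrcc4*, above 97.8% and 97.6% of all genes. Next came *Xrcc5* (2.95 ± 1.5), *Lig4* (2.39 ± 0.42) and *Dclre1c* (2.20 ± 0.23), and below a further gap *Xrcc6* (1.19 ± 0.30), *Rif1* (0.81 ± 0.092), *Mad2l2* (0.78 ± 0.37) and *Trp53bp1* (0.49 ± 0.14), which lay above 11.4% of all genes. *Prkdc* and *Xrcc4* are the longest members, with gene bodies of 203.9 and 240.3 kb. Genes with bodies of 100000 to 400000 nt had a median index of 1.85, only a little above the 1.25 of genes under 10000 nt, and within the long class *Prkdc* and *Xrcc4* still exceeded 94.4% and 93.9% of 1170 genes. *Trp53bp1*, with a body of 76.2 kb, exceeded 8.57% of the 1598 genes between 50000 and 100000 nt. The length classes were chosen after the values had been seen. In the Kmt5b sKO libraries the index was 9.59 ± 1.8 for *Prkdc*, 9.70 ± 0.59 for *Xrcc4* and 0.63 ± 0.023 for *Trp53bp1*.

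**Figure D3:**
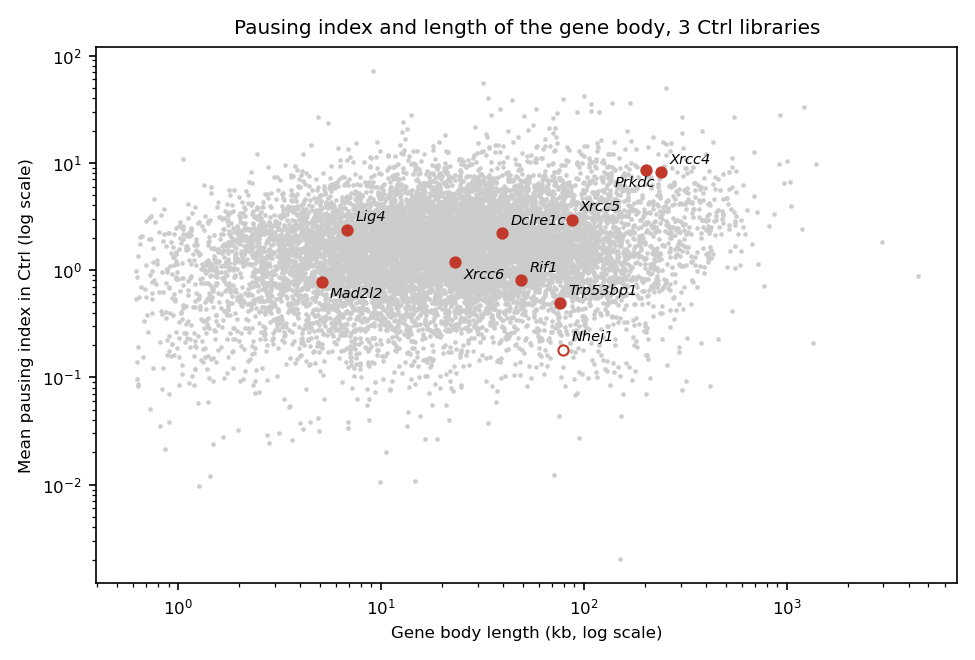
Mean pausing index over the 3 Ctrl libraries against the length of the gene body in kb, both on log scales; grey points are all genes with an index, filled red points are members, and the open point is *Nhej1*, whose listed start lies inside the gene. *Prkdc* and *Xrcc4* sit above 8, and *Trp53bp1*, at 0.49, lies in the lower part of the cloud at its length.

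At 3 members the start lies close to the start of a listed gene on the other strand. *Xrcc6* and *Desi1*, a desumoylating peptidase gene, start 206 nt apart, and *Xrcc4* and *Tmem167*, which encodes a small Golgi membrane protein, start 154 nt apart. The intervals between these starts are shown on the strand of the member because both genes of a pair share them. Capitals mark exact matches, on either strand, to the GC box GGGCGG, to the E2F-type letters TTTCCCGC and to the ETS-type letters CCGGAAG.

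Xrcc6 to Desi1, chr15:82016164-82016368, plus strand: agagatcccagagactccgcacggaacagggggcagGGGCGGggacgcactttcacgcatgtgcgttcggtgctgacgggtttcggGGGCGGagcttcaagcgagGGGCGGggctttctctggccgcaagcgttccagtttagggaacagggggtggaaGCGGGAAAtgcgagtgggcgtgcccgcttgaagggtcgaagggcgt

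Xrcc4 to Tmem167, chr13:90089609-90089761, minus strand: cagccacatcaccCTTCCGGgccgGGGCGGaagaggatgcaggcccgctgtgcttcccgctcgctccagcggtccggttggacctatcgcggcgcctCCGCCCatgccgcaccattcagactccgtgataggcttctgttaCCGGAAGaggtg

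The *Xrcc6* interval held 3 GC boxes and 1 E2F-type match, and the *Xrcc4* interval 2 GC boxes and 2 ETS-type matches. RefSeq windows of 300 bases were at hand for 8 of the 10 members. GGGCGG was present in 7 of these 8 genes and in 35.7% of all 32851 windows. CCAAT was present in 4 of 8 and in 37.4% of all windows, and CCGGAAG in 3 of 8 (*Dclre1c*, *Xrcc4* and *Lig4*) and in 8.86%. TTTCCCGC was present in *Xrcc6* only and in 1.07% of all windows. CANNTG, the E box, was present in 6 of 8 and in 72.3%. TTTGGCGC, TTTGAA, TGACGTCA and TATAAA were in no member's window and in 0.514%, 17.9%, 1.79% and 13.6% of all windows. *Mad2l2* and *Lig4* have more than 1 window each and were counted once if any window held the letters.

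The genes on the other side of these intervals gave the following values. The TSS region of *Desi1* had 29.5, 27.6 and 28.8 RPM in Ctrl against 20.3, 26.4 and 14.3 RPM in Kmt5b sKO, a log2 fold change of -0.53 (limma adjusted p = 0.55) beside the -0.54 of *Xrcc6*, and its gene body had a log2 fold change of 0.099. *Tmem167* had TSS and gene body log2 fold changes of 0.17 and -0.033, beside 0.26 and -0.0096 for *Xrcc4*. The third pair is *Prkdc* and *Mcm4*, a subunit gene of the replicative helicase, whose starts lie 489 nt apart. The gene body of *Mcm4* had 20.3, 15.5 and 18.4 TPM in Ctrl against 6.59, 11.9 and 10.2 TPM in Kmt5b sKO. All Kmt5b sKO values lay below all Ctrl values, and the log2 fold change of -0.92 (standard error 0.23, limma adjusted p = 0.12) stayed short of the threshold, while that of *Prkdc* was -0.15. Whether the 2 genes of this pair differ in their response was not tested.

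Beyond the 10 members, 4 lists of genes that act around them held 48 genes, of which 45 were listed and tested and 3 (*Shld3*, *Dntt* and *Cyren*) were not in the table. In the TSS region 2 of the 45 passed, both lower, and in the gene body 5 passed, 1 higher and 4 lower, against the 1.66% and 2.99% of all genes. For the pausing index 0 of 45 passed (limma, 3 at an unadjusted p under 0.05, beside 452 of all 11698 genes with an index). The members' own counts were 0 in all 3 measures. Members and lists alike were chosen with earlier results of these data known. The counts therefore describe the lists, and no excess over all genes was tested.

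The list of genes for 53BP1 recruitment and its partners held the 2 called in the TSS region. *H2afx*, which encodes the histone variant phosphorylated at breaks, fell from 2399, 1527 and 1405 RPM in Ctrl to 610, 762 and 790 RPM in Kmt5b sKO (log2 fold change -1.27, standard error 0.28, limma adjusted p = 0.050). *Mdc1*, whose product binds that phosphorylated histone and brings in the ubiquitin ligases that 53BP1 depends on, fell from 87.9, 56.3 and 62.3 RPM to 26.9, 30.4 and 32.2 RPM (log2 fold change -1.17, limma adjusted p = 0.041). In the gene body *Mdc1* also passed, with 33.3, 34.4 and 22.0 TPM in Ctrl against 13.7, 15.8 and 14.3 TPM in Kmt5b sKO (log2 fold change -0.99, limma adjusted p = 0.075), and *H2afx* had a log2 fold change of -1.42 (limma adjusted p = 0.11). The *H2afx* gene body is 983 nt long, and another listed gene lies upstream on the same strand. The part of that gene's reads in the *H2afx* values was not tested. The median of this list of 15 was 0.023 for the TSS region and -0.17 for the gene body.

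Among shieldin, its loader and the CST complex, *Trip13*, an ATPase that remodels Rev7, fell in the gene body from 16.7, 14.9 and 14.7 TPM to 8.19, 10.1 and 6.97 TPM (log2 fold change -0.85, limma adjusted p = 0.076). The gene of its substrate is *Mad2l2*, with a log2 fold change of -0.12. Among the accessory end-joining genes, *Paxx*, a Ku-binding relative of Xrcc4 and XLF, rose in the gene body from 186, 126 and 113 TPM to 295, 285 and 398 TPM (log2 fold change 1.22, limma adjusted p = 0.074) and had a log2 fold change of 0.29 in the TSS region (limma adjusted p = 0.77). Its gene body is 1212 nt long.

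The alternative end-joining genes, whose products join resected ends, had the lowest list median in the gene body, -0.37 over 10 genes beside 0.023 over all genes. *Polq*, the polymerase of this route, fell from 7.65, 7.19 and 6.35 TPM to 2.98, 2.68 and 2.62 TPM (log2 fold change -1.21, standard error 0.16, limma adjusted p = 0.061). *Fen1*, a flap endonuclease that also acts in replication, fell from 17.7, 20.9 and 13.5 TPM to 8.99, 8.32 and 9.28 TPM (log2 fold change -0.91, limma adjusted p = 0.076). Upstream of *Fen1* lies another listed gene on the same strand, and the part of its reads in the *Fen1* values was not tested. The lowest member in the gene body was *Rif1* at -0.48.

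**Figure D4:**
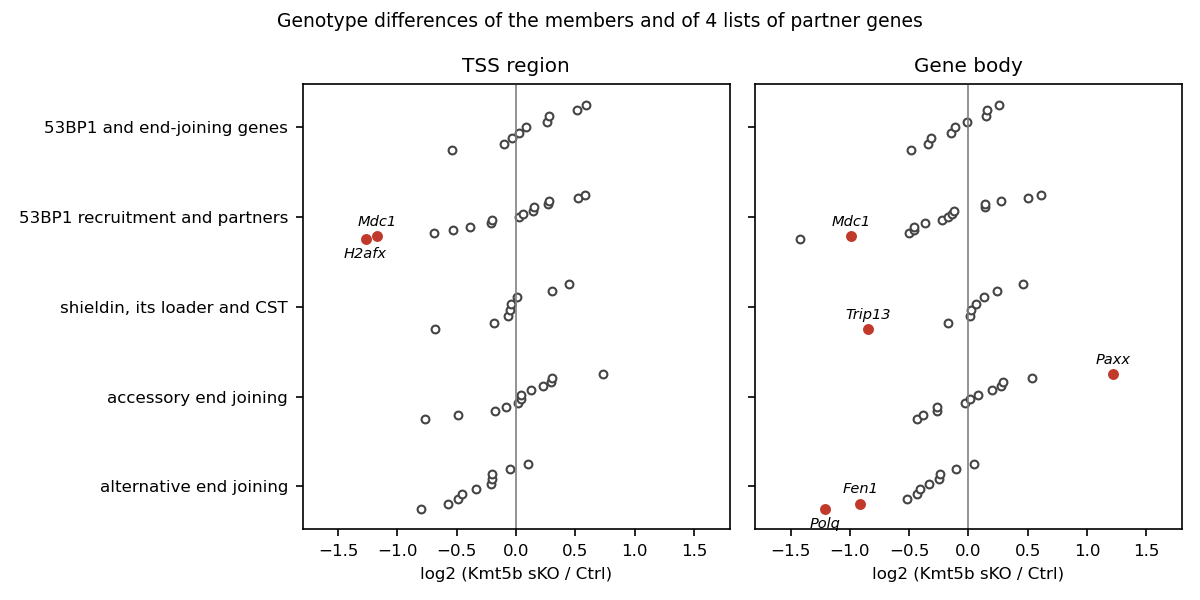
Log2 fold change of Kmt5b sKO over Ctrl in the TSS region and the gene body, 1 point per tested gene, for the members (9 genes) and 4 lists of genes around them (45 genes); filled red points passed at an adjusted p under 0.1 from limma. The red points are *H2afx* and *Mdc1* on the left, and *Mdc1*, *Trip13*, *Paxx*, *Polq* and *Fen1* on the right, and the members hold none.

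The calls among these surrounding genes depended on the libraries. With 1 library left out at a time, the TSS value of *Mdc1* passed in 4 of 6 fits and that of *H2afx* in 2 of 6. In the gene body *Polq* passed in 2 of 6 fits, and *Mdc1*, *Trip13*, *Paxx* and *Fen1* in 1 of 6 each, the one without Ctrl replicate 3. Their log2 fold changes kept their sign in all of these fits, between -1.28 and -1.16 for *Polq*, -1.08 and -0.77 for *Fen1*, -0.98 and -0.73 for *Trip13*, and 1.06 and 1.43 for *Paxx*. The gene body fits without Ctrl replicate 1 or without any 1 Kmt5b sKO replicate called 0 of 12451 genes. No gene could pass in them. In the TSS region the fit without Ctrl replicate 1 called 1 gene. Each call named here also passed with edgeR and with DESeq2 on recovered reads. Over all genes these called 279 and 295 in the TSS region and 748 and 1295 in the gene body. None passed with the replicate number as a block, where 0 of 12451 genes did. The falls of *H2afx*, *Mdc1*, *Trip13*, *Polq* and *Fen1* went along with the lower values of the markers of dividing cells (median log2 fold change -1.10 over 10 genes), and the part of that shift in them was not tested.

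The gene body values of *Trp53bp1* over the 6 libraries were most like those of *Ampd1*, a muscle AMP deaminase gene (Pearson r = 0.99), *Klhdc8b* (r = 0.99) and *Pick1* (r = 0.98), out of 10189 tested genes with a mean of at least 5 TPM, and 21 genes had an r above 0.95. With 6 points that share depth and scaling this is a description only. Of the members with such a mean, *Xrcc5* (0.56) and *Lig4* (0.48) had a positive r with *Trp53bp1*. The r was negative for *Rif1* (-0.76), *Xrcc6* (-0.67), *Prkdc* (-0.51), *Dclre1c* (-0.46) and *Mad2l2* (-0.30). Each r spans both genotypes, so it also holds the genotype differences given above, and none was tested.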

How the data were processed

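Reads of 6 PRO-seq libraries of mouse MuSCs (3 Ctrl, 3 Kmt5b sKO) had been checked with FastQC 0.11.8, trimmed with Trimmomatic 0.39, aligned to GRCm38 with STAR 2.6.1d, with 1 random position for reads matching several, and deduplicated with Picard 2.18.16, per the study's methods and the submitters' processing notes. The authors counted sense-strand reads and kept 1 isoform per gene, by its TSS value. The deposited gene body values are TPM. The deposited TSS values are called RPM here, while their headers and the methods name TPM. All TSS regions are 400 nt long, so dividing by length does not alter how they compare, and the planned test was kept.

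Genes on X or Y and genes with a mean under 0.5 in either region were left out. Tests used log2(value + 0.5), on which the change of low genes is understated, with limma 3.58.1 (lmFit, eBayes with trend) in R 4.3.3, genotype as the only term, and Benjamini-Hochberg adjustment over all tested genes (called under 0.1). The pausing index was tested as a log2 ratio without pseudocount in genes above 0 in all libraries. Reads behind the values were recovered from steps between low values, within a tolerance of 0.0051, for 99.99% to 100% of TSS values and, in gene bodies under 2000 nt, 98.9% to 99.3%, and served edgeR 4.0.16 and DESeq2 1.42.0 as alternatives. The median tested gene had 35 to 107 TSS reads and 203 to 468 gene body reads per library. The tests were tried on simulated data.

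The members and all lists were chosen with earlier results of these data known. Named genes were the members, each called gene of the 4 lists, genes starting within 1000 nt on the other strand, the 3 most like *Trp53bp1*, and *Kmt5b*. Starts were compared with GENCODE vM21 and RefSeq GRCm38.p6, and of the 314 RefSeq windows compared with the genome all 314 were equal.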

Additional observations from a re-analysis of the deposited data

How the results depend on the processing

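The result that 0 members passed held in the TSS region and for the pausing index under every alternative run, and in the gene body under all but DESeq2 on recovered reads, which called 1 (*Rif1*). Runs that called 0 genes, given below, could not call a member. The counts over all genes moved more. In the TSS region, where 207 passed, limma called 0 genes with low values kept (1448 at an unadjusted p under 0.05), 0 when eBayes had no trend (1292), 64 at an adjusted p under 0.05, and between 1 (without Ctrl replicate 1) and 408 (without Ctrl replicate 2) with 1 library left out. In the gene body, where 372 passed, edgeR called 748, DESeq2 1295 and limma 1 at an adjusted p under 0.05. With 1 library left out the count ran from 0 (without Ctrl replicate 1 or any Kmt5b sKO replicate, 1374 to 1706 at an unadjusted p under 0.05) to 836 (without Ctrl replicate 3). For the pausing index 9 genes passed from recovered reads per nt and 1 with a pseudocount of 0.5, none of them a member.

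With the replicate number as a block, 0 genes passed in the TSS region (1141 at an unadjusted p under 0.05) and 0 in the gene body (1441). The numbers gave no pairing, as deviations of same-numbered libraries correlated at -0.034, -0.13 and -0.16 in the TSS region and at -0.15, -0.17 and -0.33 in the gene body.

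The following member differences, none past the test, changed sign. In the TSS region *Mad2l2* was at -0.10 with DESeq2, -0.084 with edgeR and -0.031 after quantile normalisation, and *Prkdc* at -0.065, -0.055 and -0.035, and at -0.056 with median-ratio scaling. From recovered reads the pausing index of *Lig4* gave -0.038. With 1 library left out the TSS values ran from -0.42 to 0.38 for *Mad2l2*, -0.038 to 0.13 for *Prkdc*, -0.21 to 0.069 for *Rif1* and -0.24 to 0.081 for *Dclre1c*. Gene bodies ran from -0.33 to 0.24 for *Mad2l2*, -0.015 to 0.37 for *Xrcc5* and -0.12 to 0.13 for *Xrcc4*, and indices from -0.15 to 0.27 for *Lig4*, -0.098 to 0.56 for *Mad2l2* and -0.012 to 0.37 for *Prkdc*. The gene body of *Rif1* stayed between -0.58 and -0.42 and that of *Trp53bp1* between 0.11 and 0.21. Depth limits *Nhej1* (TSS) and *Lig4* (gene body) most.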
